A study of Mus musculus with 6 samples.

Results

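The genes described here encode the proteins of the cytosolic ribosome. Members were the protein-coding genes whose mouse symbol is Rpsa or Fau, or begins with Rpl, Rplp or Rps and a digit, without the Rps6k kinases, Rps19bp1 and copies whose symbol ends in -ps with a number. The rule gave 86 genes of 55401 identifiers in the files, 52 for the large subunit and 34 for the small subunit. A further 7 genes with such symbols were left out because they were annotated as pseudogenes. RNA was sequenced from the myocardium of male WT mice injected with STZ (streptozotocin, a toxin of the pancreatic beta cells that makes mice diabetic) or with PBS. There were 3 STZ libraries and 3 PBS libraries, and each carries the time label 8 weeks. Neither the event from which this time runs nor the strain and age of the mice is given. No label ties a library to its own animal, and the p-values may thus reflect technical spread alone. The values are FPKM (fragments per kilobase of transcript, relative to all mapped fragments). They are relative to each library's total, and the number of fragments behind them is unknown.

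A ribosome joins a small subunit, which reads the message, to a large subunit, which forms the peptide bond. Each subunit holds ribosomal RNA and a fixed set of proteins, most of them present as a single copy, and their genes are usually expressed together. Their messages begin with a tract of pyrimidines, the terminal oligopyrimidine or TOP tract, through which the kinase mTOR and the RNA-binding protein Larp1 control translation. Some members have a paralogue with a restricted pattern, of which Rpl3l, the form of Rpl3 found in heart and skeletal muscle, is the one known for this tissue.

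The file of PBS replicate 3 lists 7711 genes (13.9%), and 24 of the 86 members. The comparison over all genes therefore used 3 STZ libraries and PBS replicates 1 and 2, and values of PBS replicate 3 are given where it lists a gene. The FPKM totals of these 5 libraries were 531384 to 581718 in STZ and 586336 to 589719 in PBS, and mitochondrial genes held 42.0% to 45.5% of the total in STZ and 47.1% to 47.3% in PBS. The cardiomyocyte genes Myh6, which encodes the alpha heavy chain of myosin, and Tnnt2, cardiac troponin T, were abundant in each of these 5 libraries. Myh6 was at 2219 to 2546 FPKM in STZ and 2925 to 3083 FPKM in PBS. Tnnt2 was at 813 to 1099 FPKM in STZ and 670.88 to 755.99 FPKM in PBS. In bulk tissue, fewer cells of a type and less RNA per cell cannot be told apart.

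Transcripts of both ribosomal subunits were higher in STZ myocardium. Differences are log2 changes, STZ minus PBS, of log2(FPKM + 1), tested with limma and Benjamini-Hochberg adjustment over the 11556 genes that reached 1 FPKM in 2 or more libraries. Of the 84 members that were tested, 28 (33.3%) rose past an adjusted p of 0.05, against 3.64% of all genes tested, with fold changes of the mean FPKM of 1.49 to 2.66. The adjusted p-values of these 28 ran from 0.00707 to 0.04998. A single member fell, Rpl3l, against 2.17% of all genes. The other 55 did not pass, and in either direction 5.82% of all genes passed. The log2 change was positive for 80 of the 84, against 57.0% of all genes. Every STZ library lay above both PBS libraries for 76 members, against 28.7% of all genes, and below both for 2, Rpl3l and Rpl7l1, against 18.8%. The 2 untested members were the copies Rpl10l and Rpl39l, which are known from the testis. Rpl10l was at 0 FPKM in all 5 libraries. Rpl39l was at 0, 0.10 and 0 FPKM in STZ replicates 1 to 3, and at 0.13 and 0 FPKM in PBS replicates 1 and 2. The filter on low values otherwise removed no member, and the lowest mean of a tested member over the 5 libraries was 9.59 FPKM.

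The number of calls changed when a library was left out. Leaving out a PBS library leaves that group with 1, which is assumed to vary like the STZ libraries. Without PBS replicate 1, limma called 0 members higher (47 at an unadjusted p under 0.05) and 0 lower, and without PBS replicate 2 it called 0 higher (56 at an unadjusted p under 0.05) and 0 lower. The members' median log2 change was 0.57 without PBS replicate 1 and 0.63 without PBS replicate 2. The number called higher of the 84 members was 18 without STZ replicate 1, 2 without STZ replicate 2 and 10 without STZ replicate 3. Of all genes tested, these fits called 225 of 11311, 227 of 11273 and 231 of 11248 higher. Without STZ replicate 2 the members were thus called at a rate near that of all genes. With the full set of 5 libraries, 75 of the 84 members were higher and 1 lower at an unadjusted p under 0.05.

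The size of the difference was similar across the members. The median log2 change was 0.59 (quartiles 0.49 and 0.72), while the median over all genes tested was 0.06 (quartiles -0.17 and 0.30). Of the 84 members, 62 lay between 0.4 and 0.8. The median was 0.60 over the 50 tested genes of the large subunit and 0.59 over the 34 of the small subunit. Calls of a rise numbered 18 of 50 in the large subunit and 10 of 34 in the small subunit.

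**Figure D1:**
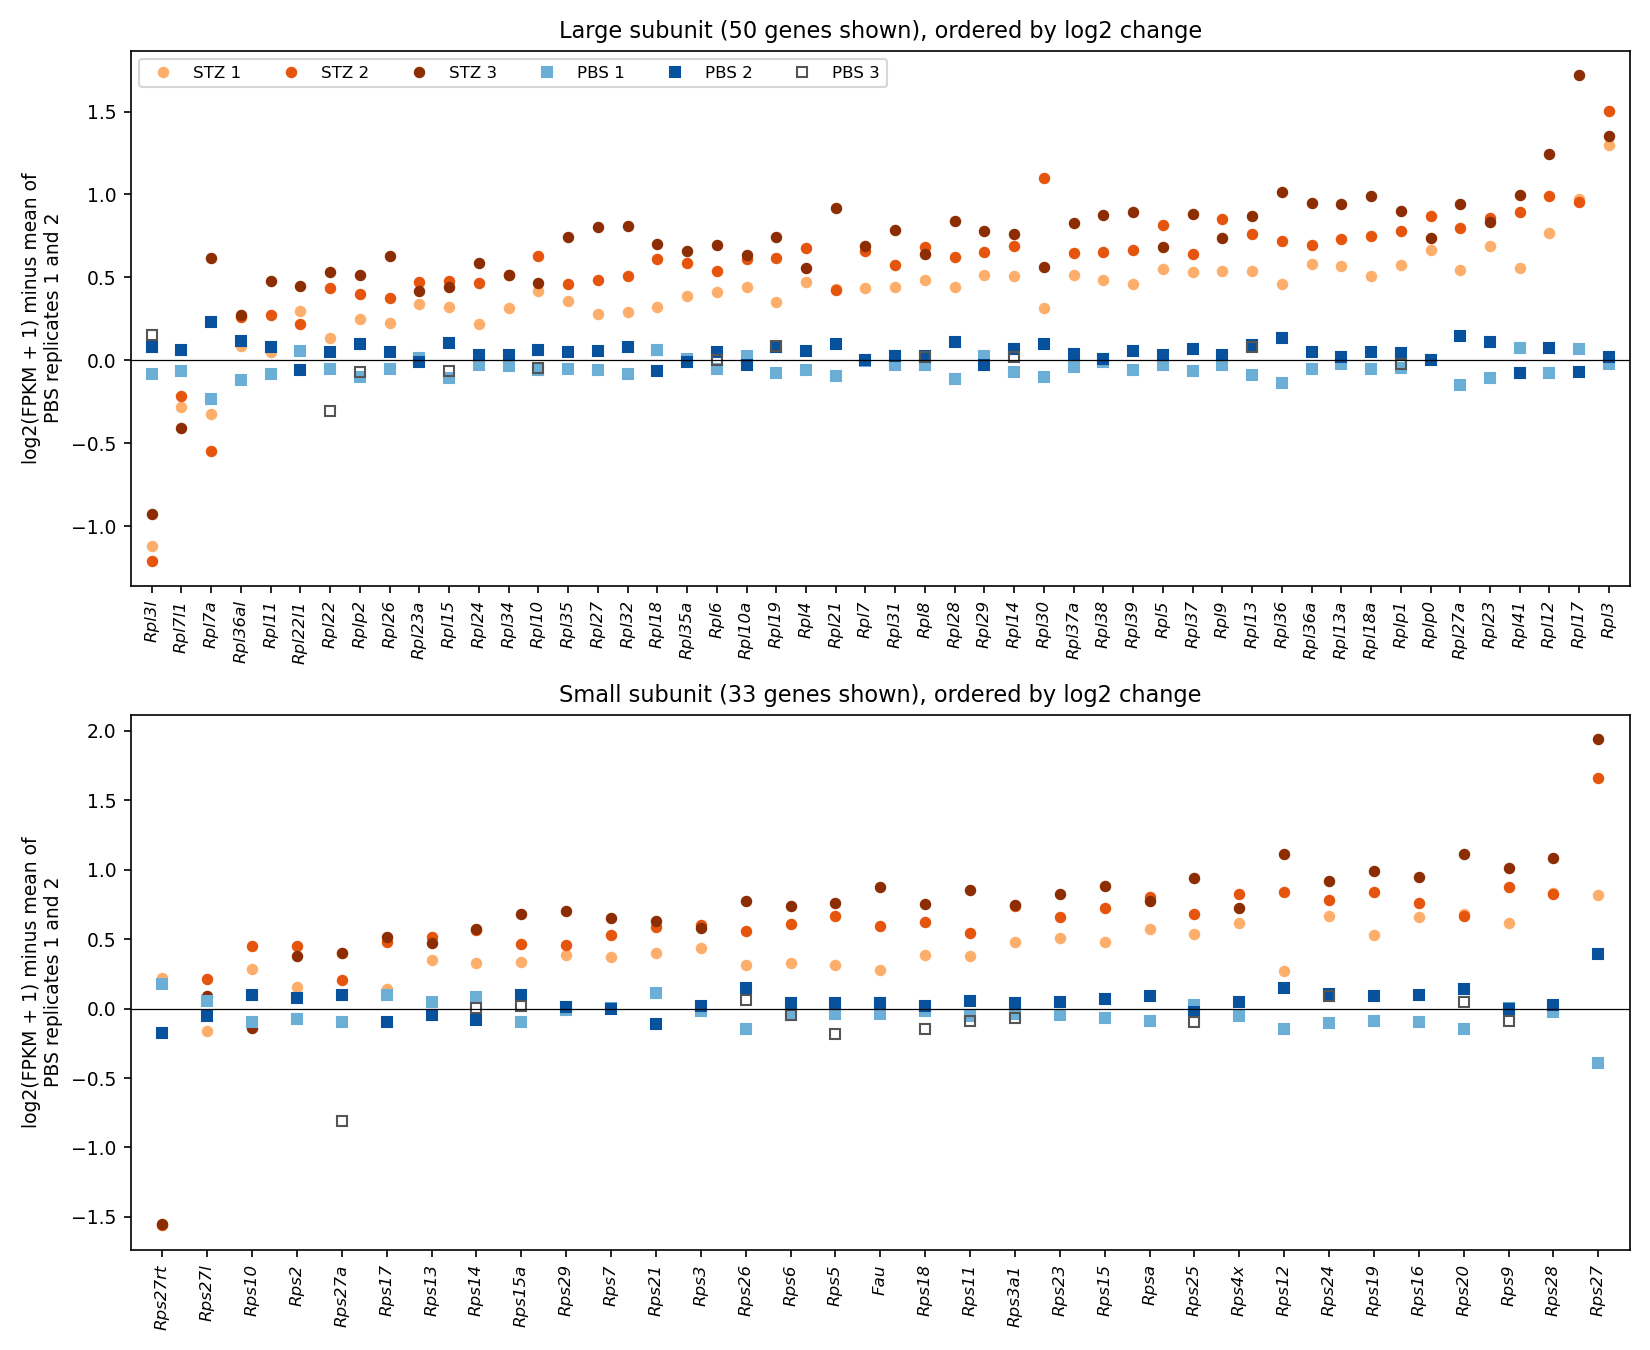
Level of the tested ribosomal protein genes, less 1 of the small subunit that is not shown, in each library (circles STZ, filled squares PBS replicates 1 and 2, open squares PBS replicate 3 where listed), as log2(FPKM + 1) minus the mean of PBS replicates 1 and 2, with genes of each subunit ordered by log2 change. The circles lie above the squares for most genes, and the order runs from Rpl3l (-1.09) to Rpl3 (1.38) in the large subunit and from Rps27rt (-0.96) to Rps27 (1.47) in the small subunit.

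The summed FPKM of the 86 members was 10089, 11537 and 12530 in STZ replicates 1 to 3, and 7259 and 7701 in PBS replicates 1 and 2. The groups did not overlap, and STZ replicate 1 was the lowest of the STZ libraries. The means were 11385 ± 1228 FPKM in STZ (SD, n = 3) and 7480 ± 313 FPKM in PBS (SD, n = 2), a ratio of 1.52. Since mitochondrial transcripts took a smaller share of the total in STZ, the sum was also taken as a share of the FPKM outside the mitochondrial genome. That share was 3.25%, 3.74% and 3.80% in STZ replicates 1 to 3, and 2.35% and 2.47% in PBS replicates 1 and 2, a ratio of means of 1.49. The large and small subunits kept nearly the same proportion, with a ratio of their sums of 1.323 ± 0.0116 in STZ (SD, n = 3) and 1.297 ± 0.0276 in PBS (SD, n = 2).

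**Figure D2:**
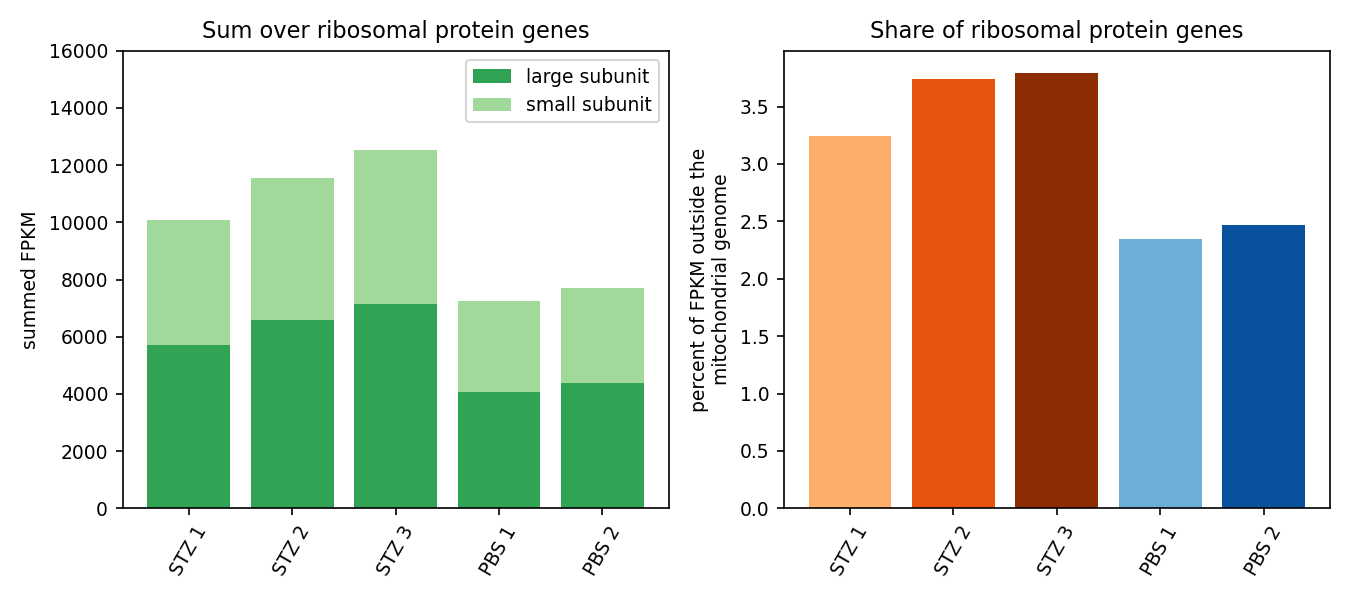
Left, summed FPKM of the large and small subunit genes in each complete library; right, their percent of the FPKM outside the mitochondrial genome. The 3 STZ libraries reach 3.25% to 3.80% and the PBS libraries 2.35% to 2.47%.

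The size of the difference varied among the STZ libraries. The median over members of the log2 level minus the PBS mean was 0.43 in STZ replicate 1, 0.62 in STZ replicate 2 and 0.74 in STZ replicate 3. STZ replicate 3 was the highest STZ library for 64 of the 84 members, STZ replicate 2 for 19 and STZ replicate 1 for 1. In PBS, replicate 2 was above replicate 1 for 67 members. Atrial Myl7 ran in the opposite order, at 357.4, 73.7 and 0.28 FPKM in STZ replicates 1 to 3. It was at 262.4, 37.9 and 0.21 FPKM in PBS replicates 1 to 3, of which replicate 3 is not in the fit. Whether the atrial part of the tissue entered the order of the members was not tested.

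The opposite movement of Rpl3 and Rpl3l stood out against this common pattern. Rpl3 (ENSMUSG00000060036; GRCm38 chromosome 15, 80077791 to 80091868, minus strand) encodes the protein of the large subunit that reaches towards the peptidyl transferase centre. It was at 79.98, 92.37 and 83.39 FPKM in STZ replicates 1 to 3, and at 31.5 and 32.5 FPKM in PBS replicates 1 and 2. All STZ libraries were well above both PBS libraries, and Rpl3 had the smallest adjusted p of the members, with a log2 change of 1.38 (SE 0.12, adjusted p = 0.00707). The means were 85.3 ± 6.40 FPKM in STZ (SD, n = 3) and 32.0 ± 0.728 FPKM in PBS (SD, n = 2).

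Rpl3l (ENSMUSG00000002500; GRCm38 chromosome 17, 24727820 to 24736143, plus strand) can take the place of Rpl3 in the ribosomes of mature muscle. It was at 52.0, 48.7 and 59.7 FPKM in STZ replicates 1 to 3, and at 107.9, 120.7 and 126.8 FPKM in PBS replicates 1 to 3. All STZ libraries were below all PBS libraries, PBS replicate 3 included. It fell by 1.09 on the log2 scale (SE 0.14, adjusted p = 0.0163). Over the 4824 genes tested with PBS replicate 3, the log2 change was -1.14 (SE 0.11, adjusted p = 0.000897), and an exact permutation test of 3 against 3 libraries gave p = 0.1, the smallest it can give. With a single PBS library, whose spread is then taken from STZ, neither gene passed, while the sizes of the changes were close to those above. Without PBS replicate 1 the log2 change was -1.17 for Rpl3l (adjusted p = 0.113) and 1.36 for Rpl3 (adjusted p = 0.0862). Without PBS replicate 2 it was -1.01 for Rpl3l (adjusted p = 0.140) and 1.41 for Rpl3 (adjusted p = 0.0767).

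The 2 genes were also summed. Rpl3 and Rpl3l summed to 132.0, 141.1 and 143.1 FPKM in STZ replicates 1 to 3, and to 139.4 and 153.2 FPKM in PBS replicates 1 and 2, and the groups overlapped. The share of Rpl3l in this sum was 39.4%, 34.5% and 41.7% in STZ, and 77.4% and 78.8% in PBS. The means were 38.5% ± 3.67 in STZ (SD, n = 3) and 78.1% ± 0.962 in PBS (SD, n = 2), a difference of -39.6 percentage points. The exact two-sided permutation test gave p = 0.2, the smallest that 3 against 2 libraries allow, and 0.35 after adjustment over 7 paralogue pairs. In these libraries the larger part of the pair was Rpl3 in STZ and Rpl3l in PBS.

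**Figure D3:**
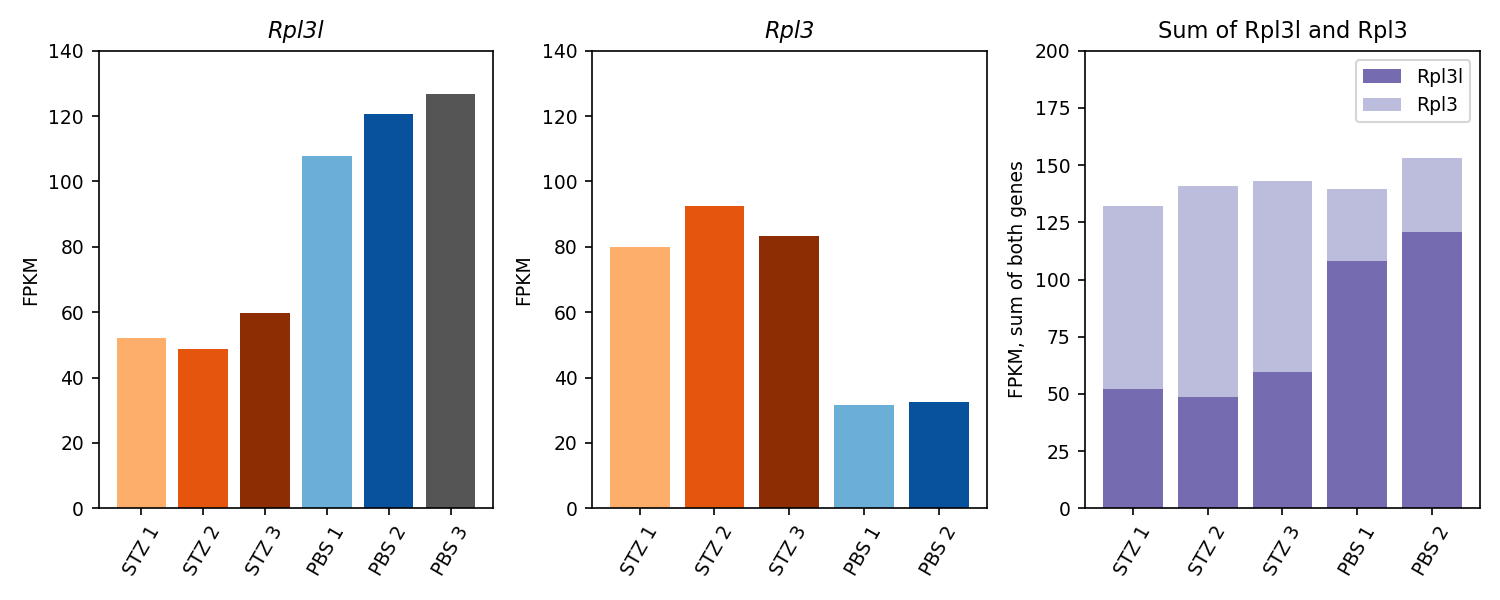
FPKM of Rpl3l (left), of Rpl3 (middle) and of both stacked (right) in each library that lists them. Rpl3l lies at 48.7 to 59.7 FPKM in STZ and 107.9 to 126.8 FPKM in PBS, Rpl3 at 79.98 to 92.37 FPKM in STZ and 31.5 to 32.5 FPKM in PBS, and the stacks at 132.0 to 143.1 FPKM in STZ and 139.4 to 153.2 FPKM in PBS.

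Rpl3l was the only paralogue with an l, l1, al or rt ending to pass the limma test on its level. The exact test on the share could pass no pair, since its smallest p is 0.2 with 3 against 2 libraries. Rpl7l1, a paralogue of Rpl7 and the other member with all STZ libraries below both PBS libraries, was at 8.94, 9.39 and 8.09 FPKM in STZ and at 10.6 and 11.6 FPKM in PBS (log2 change -0.30, SE 0.13, limma adjusted p = 0.19). Its share of the pair with Rpl7 was 7.69% ± 0.978 in STZ (SD, n = 3) and 13.7% ± 0.776 in PBS (SD, n = 2). Rpl7 itself had a log2 change of 0.60 (limma adjusted p = 0.0519). For Rpl7l1, a lower level of the paralogue and a higher level of the parent thus both entered the share.

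Rpl22l1 had like shares in both groups beside Rpl22, an RNA-binding protein of the large subunit. The share was 19.1% ± 2.18 in STZ (SD, n = 3) and 19.3% ± 1.76 in PBS (SD, n = 2), and the exact permutation p was 1. Rpl22l1 was at 10.3, 9.71 and 11.5 FPKM in STZ and at 8.57 and 7.84 FPKM in PBS (log2 change 0.32, limma adjusted p = 0.175). Rpl22 was at 37.7, 46.8 and 50 FPKM in STZ replicates 1 to 3, and at 33.1, 35.6 and 27.6 FPKM in PBS replicates 1 to 3 (log2 change 0.37, limma adjusted p = 0.196).

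Rpl36al was measured beside its X-linked parent Rpl36a. Rpl36a was at 29.7, 32.3 and 38.6 FPKM in STZ and at 18.9 and 20.3 FPKM in PBS, a rise of 0.74 on the log2 scale (SE 0.15, limma adjusted p = 0.0440). Rpl36al was at 36.0, 40.9 and 41.1 FPKM in STZ and at 31.2 and 36.9 FPKM in PBS, and its groups overlapped (log2 change 0.21, limma adjusted p = 0.378). Its share was 54.1% ± 2.23 in STZ (SD, n = 3) and 63.4% ± 1.55 in PBS (SD, n = 2), with an exact permutation p of 0.2, or 0.35 after adjustment over the 7 pairs.

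Rps27l, the paralogue of Rps27, was at 32.1, 41.9 and 38.5 FPKM in STZ and at 37.4 and 34.7 FPKM in PBS. The groups overlapped (log2 change 0.05, limma adjusted p = 0.867), and the sign of this small difference depended on the scaling. Its share beside Rps27 was 20.1% ± 4.82 in STZ (SD, n = 3) and 40.5% ± 10.7 in PBS (SD, n = 2), with an exact permutation p of 0.2. That share rests on the level of Rps27, which cannot be read alone.

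Rps27, a zinc-binding protein of the small subunit, has a retrotransposed copy with its own gene name, Rps27rt. Rps27 (GRCm38 chromosome 3, 90212522 to 90213651, minus strand) has 3 exon blocks, and Rps27rt (chromosome 9, 114982366 to 114982739, minus strand) has 1. The bases around their annotated starts, from 20 before to 30 after, show how alike the transcribed ends are. They are taken from the RefSeq promoters of GRCm38.p6, 5′ to 3′ on the minus strand, and capitals mark the stretch of the printed window that lies in the longest run of bases shared by both promoters, 38 bases long.
Rps27, chr3:90213619-90213668: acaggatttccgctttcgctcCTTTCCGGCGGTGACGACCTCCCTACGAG
Rps27rt, chr9:114982710-114982759: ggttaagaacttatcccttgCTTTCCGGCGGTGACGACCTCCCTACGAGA

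The division between the 2 genes varied between libraries of a group. Rps27 was at 95.3, 171.0 and 208.4 FPKM in STZ replicates 1 to 3, and at 40.5 and 70.6 FPKM in PBS replicates 1 and 2. This is the highest log2 change of any member, 1.47, but with the wide standard error of 0.38 it did not pass (limma adjusted p = 0.0751). Rps27rt was at 162.1, 46.5 and 46.7 FPKM in STZ and at 157.1 and 123.1 FPKM in PBS. STZ replicate 1 stood with the PBS libraries (log2 change -0.96, SE 0.55, limma adjusted p = 0.309), and without it the adjusted p was 0.0258. The sum of both genes varied less, at 257.4, 217.5 and 255.2 FPKM in STZ and 197.7 and 193.7 FPKM in PBS. The sum differed by 0.31 on the log2 scale, and how the authors' counting divided reads between such copies is not given in the sources used here.

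**Figure D4:**
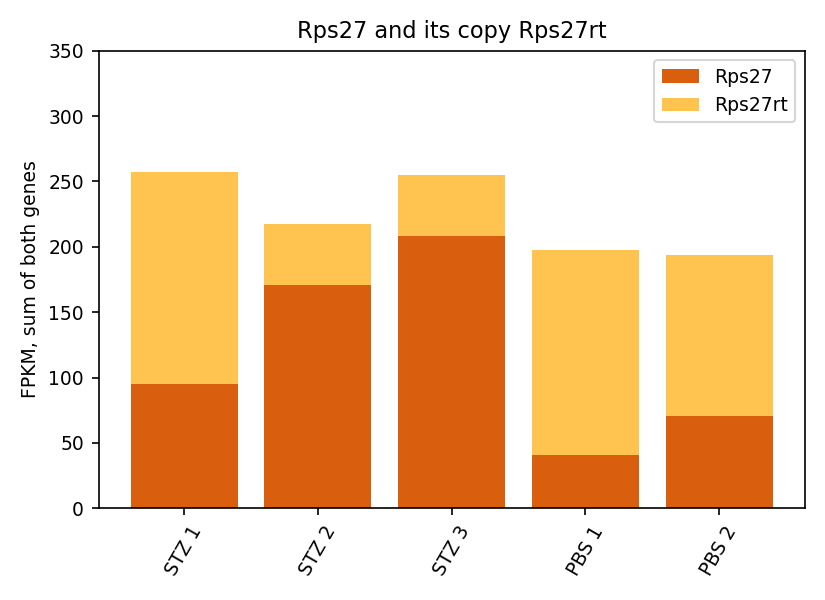
FPKM of Rps27 and of its copy Rps27rt, stacked, in each complete library. The stacks reach 217.5 to 257.4 FPKM in STZ and 193.7 to 197.7 FPKM in PBS, while the part of each gene varies widely within STZ.

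Several other members with odd values also have many annotated copies, and their own values are uncertain for the same reason. Rpl7a, of the large subunit, was at 33.3, 28.4 and 64.9 FPKM in STZ and at 35.6 and 49.5 FPKM in PBS, and the groups overlapped. Summed with its 13 copies it was at 132.3, 133.8 and 188.7 FPKM in STZ and at 113.4 and 131.3 FPKM in PBS. Rps10, of the small subunit, was at 45.1, 50.7 and 33.4 FPKM in STZ and at 34.4 and 39.5 FPKM in PBS, which also overlap. With its 4 copies it was at 162.4, 184.8 and 176.1 FPKM in STZ and at 118.9 and 136.2 FPKM in PBS, which do not. Rpl17 and its 11 copies summed to 292.0, 323.0 and 348.8 FPKM in STZ and to 197.1 and 204.2 FPKM in PBS, and most of this sum was assigned to the copies.

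Most annotated copies were also higher in STZ, but few passed the threshold. Of 300 annotated -ps copies of ribosomal protein genes, 112 were tested and 102 had a positive log2 change, against 57.0% of all genes, with a median of 0.46. By limma 4 of the 112 rose, near the 3.64% of all genes, and 0 fell. Their summed FPKM was 1994, 2333 and 2610 in STZ and 1451 and 1567 in PBS, a ratio of means of 1.53. Whether these reads came from the copies or from the parents cannot be told apart in these values.

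Among the genes of the large subunit, the stalk that recruits elongation factors had 3 of 4 genes past the threshold. In the whole large subunit 18 of 50 rose, and 3.64% of all genes tested. Whether the stalk differs from the other members was not tested. Rplp0 (GRCm38 chromosome 5, 115559467 to 115563727, plus strand), the base of the stalk, was at 410.2, 472.8 and 430.9 FPKM in STZ and at 257.8 and 258.0 FPKM in PBS. It rose by 0.76 on the log2 scale (SE 0.12, limma adjusted p = 0.0245). Rplp1 (chromosome 9, 61913284 to 61914542, minus strand), an acidic protein of the stalk and the most abundant member, was at 832.2, 959.4 and 1043 FPKM in STZ replicates 1 to 3, and at 541.4, 576.8 and 549.7 FPKM in PBS replicates 1 to 3. PBS replicate 3 fell between the other PBS libraries, and the rise was 0.75 (SE 0.13, limma adjusted p = 0.0324). Its partner Rplp2 was at 76.6, 85.1 and 92.2 FPKM in STZ and at 59.9, 68.8 and 61.1 FPKM in PBS replicates 1 to 3. The groups did not overlap, and Rplp2 did not pass in the 5 libraries (log2 change 0.39, limma adjusted p = 0.139) but passed in the fit with PBS replicate 3 (adjusted p = 0.0304). Rpl12 (chromosome 2, 32961559 to 32965345, plus strand), beside the stalk base, was at 36.7, 43.0 and 51.5 FPKM in STZ and at 20.03 and 22.37 FPKM in PBS, with a rise of 1.00 (SE 0.17, limma adjusted p = 0.0299).

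Near the peptidyl transferase centre, Rpl8 rose beside Rpl3. Rpl8 was at 226.4, 259.3 and 251.9 FPKM in STZ replicates 1 to 3 and at 158.3, 164.4 and 163.5 FPKM in PBS replicates 1 to 3 (log2 change 0.60, limma adjusted p = 0.0417). Rpl10, which is added late in assembly of the large subunit, had a log2 change of 0.51 and did not pass (limma adjusted p = 0.0728). The STZ and PBS libraries did not overlap for either gene.

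Rpl5 and Rpl11, which join the subunit together with the smallest ribosomal RNA and are known to bind Mdm2 when free, gave different values. Rpl5 was at 87.4, 105.1 and 95.9 FPKM in STZ and at 58.1 and 60.6 FPKM in PBS, a rise of 0.68 (limma adjusted p = 0.0383). Rpl11 was at 60.6, 71.0 and 81.8 FPKM in STZ and at 55.2 and 61.9 FPKM in PBS, and the groups overlapped (log2 change 0.27, limma adjusted p = 0.334). The difference between the 2 genes was not tested.

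At the rim of the exit tunnel, all 7 genes had positive log2 changes, as had 80 of the 84 members. Their median was 0.57, and Rpl17 alone passed. Rpl17 was at 33.1, 32.7 and 56.4 FPKM in STZ and at 17.3 and 15.6 FPKM in PBS (log2 change 1.22, SE 0.25, limma adjusted p = 0.0476). STZ replicate 3 was far above the other STZ libraries. The other 6, Rpl19, Rpl23a, Rpl26, Rpl31, Rpl35 and Rpl39, had log2 changes of 0.41 to 0.67.

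Abundant genes were found on both sides of the threshold. Rpl36, among the 3 most abundant of the large subunit, was at 434.1, 520.6 and 639.4 FPKM in STZ and at 286.6 and 346.9 FPKM in PBS, and did not pass (log2 change 0.73, limma adjusted p = 0.0756). Rpl41, one of the shortest proteins known, which sits between the subunits, was at 105.7, 134.0 and 144.0 FPKM in STZ and at 75.6 and 67.9 FPKM in PBS, a rise of 0.82 (limma adjusted p = 0.0448). The remaining genes of the large subunit that rose were Rpl4, Rpl9, Rpl13, Rpl13a, Rpl14, Rpl23, Rpl29, Rpl37 and Rpl37a, with log2 changes of 0.57 to 0.79. Across the 84 members the log2 change had a weak correlation with the mean FPKM (Pearson r = 0.12, Spearman rho = 0.10), a description over genes of the same libraries.

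In the small subunit, Rps28 and Rpsa, near the site where the message leaves, passed the threshold, and Rps26 did not. Rps28 was at 49.5, 49.4 and 59.3 FPKM in STZ and at 27.0 and 27.9 FPKM in PBS, the highest change of a called gene of this subunit (log2 change 0.91, SE 0.13, limma adjusted p = 0.0224). Rpsa, also known as the laminin receptor, was at 151.1, 177.6 and 174.4 FPKM in STZ and at 95.2 and 108.0 FPKM in PBS (log2 change 0.72, limma adjusted p = 0.0372). Where the message enters, Rps2, Rps3 and Fau had log2 changes of 0.33, 0.54 and 0.58 and did not pass. In all 6 genes the STZ libraries lay above both PBS libraries, as in 76 of the 84 members and 28.7% of all genes.

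Of the genes at the decoding centre, Rps23 rose (log2 change 0.66, limma adjusted p = 0.0451). Rps15, the most abundant gene of the small subunit, was at 557.7, 661.5 and 740.9 FPKM in STZ and at 382.8 and 419.4 FPKM in PBS and narrowly missed the threshold (log2 change 0.69, limma adjusted p = 0.0508). Rps3a1 was at 382.0, 455.8 and 459.1 FPKM in STZ replicates 1 to 3 and at 265.4, 281.0 and 260.4 FPKM in PBS replicates 1 to 3, a rise of 0.66 (limma adjusted p = 0.0429). Rps29, the other of the 3 most abundant, had a log2 change of 0.51 (limma adjusted p = 0.0766).

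Rps9 had the next highest change among the called genes of the small subunit. It was at 112.7, 135.2 and 148.3 FPKM in STZ replicates 1 to 3 and at 73.2, 73.0 and 68.7 FPKM in PBS replicates 1 to 3 (log2 change 0.84, limma adjusted p = 0.0340). Rps20 was at 34.4, 34.0 and 46.8 FPKM in STZ and at 19.0, 23.4 and 21.9 FPKM in PBS replicates 1 to 3 and did not pass (log2 change 0.82, limma adjusted p = 0.0586). Rps4x, the X-linked form of a gene that has a Y-linked partner in humans, was at 191.5, 220.6 and 206.0 FPKM in STZ and at 120.0 and 128.8 FPKM in PBS (log2 change 0.72, limma adjusted p = 0.0291). Rps16, Rps24 and Rps25 also rose, with log2 changes of 0.72 to 0.79.

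Rps6, the substrate of S6 kinase downstream of mTOR, was at 165.2, 200.9 and 219.3 FPKM in STZ replicates 1 to 3 and at 127.3, 135.2 and 126.8 FPKM in PBS replicates 1 to 3. The groups did not overlap, and it passed with PBS replicate 3 in the fit (adjusted p = 0.0138) but not without it (log2 change 0.56, limma adjusted p = 0.0831). The genes made as fusions to ubiquitin or a ubiquitin-like protein did not pass. Fau was at 113.6, 141.7 and 171.8 FPKM in STZ and at 90.9 and 95.8 FPKM in PBS (log2 change 0.58, limma adjusted p = 0.115). Rps27a was at 65.5, 57.1 and 65.7 FPKM in STZ replicates 1 to 3 and at 46.2, 53.0 and 27.8 FPKM in PBS replicates 1 to 3 (log2 change 0.33, limma adjusted p = 0.174). PBS replicate 3 was low for Rps27a, whose 2 copies varied widely between libraries, from 29.6 to 126.9 FPKM in STZ and from 19.0 to 48.0 FPKM in PBS.

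PBS replicate 3 was a further library for the 24 members it lists. In 23 of them all 3 STZ libraries were above all 3 PBS libraries, against 26.0% of the 4824 genes tested in all 6 libraries, and in Rpl3l below them, against 15.9%. In that fit 22 members rose, against 12.6% of the genes, Rpl3l fell, against 7.90%, and Rps27a did not pass (limma adjusted p = 0.0847). The level in PBS replicate 3 was within the range of the other PBS libraries for 13 of the 24 members, below it for 9 and above it for 2.

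Markers of other cell types are given beside these results. Summed neutrophil markers were at 40.8 to 61.9 FPKM in STZ and 3.29 to 7.54 FPKM in PBS. S100a8, S100a9 and Retnlg, the 3 tested of 9, rose, while Mpo and Elane, which mark immature neutrophils, were at 0 in every complete library. Ngp, Ltf, Camp and Ly6g, also untested, were not at 0 throughout. They peaked in STZ replicate 2, at 3.56, 0.73, 0.78 and 0.38 FPKM. STZ replicates 1 and 3 held 0 to 0.47 FPKM of each, and the complete PBS libraries 0 to 0.04 FPKM. Erythroid genes summed to 329.0 to 959.1 FPKM in STZ and to 282.9 to 310.2 FPKM in PBS, and none of the 5 passed. Each of the 5 was highest in STZ replicate 2. Hba-a2, for example, was at 94.1, 269.1 and 104.7 FPKM in STZ replicates 1 to 3, and at 84.6 and 75.8 FPKM in PBS replicates 1 and 2. The 4 atrial genes did not pass either, and their levels differed more between libraries of a group than between groups. Myl7, the atrial myosin light chain, was at 357.4, 73.7 and 0.28 FPKM in STZ replicates 1 to 3, and at 262.4, 37.9 and 0.21 FPKM in PBS replicates 1 to 3. Sln and Myl4 ran in the same order, from the highest level in replicate 1 of each group. These 3 genes had negative log2 changes, in a fit that held STZ replicate 3 but not PBS replicate 3. At the same replicate number Myl7 was higher in STZ each time, and Myl4 in replicates 1 and 2. Sln was higher in STZ in replicate 1 and lower in replicate 2. The negative signs thus rest on unlike sets of replicate numbers. Nppa, which encodes atrial natriuretic peptide, made up most of the summed level of the list, 961 to 3304 FPKM in STZ and 302 to 1328 FPKM in PBS. Its log2 change was positive (1.66, limma adjusted p = 0.184). Skeletal muscle genes, whose tissue also expresses Rpl3l, summed to 0.44 to 0.86 FPKM in STZ and to 0.14 to 0.93 FPKM in PBS, with Myh4 at 0. B and T cell genes summed to 0.08 to 1.13 FPKM in STZ and to 0.28 to 1.15 FPKM in PBS. Macrophage genes summed to 66.9 to 92.0 FPKM in STZ and to 88.3 to 94.8 FPKM in PBS, fibroblast genes to 92.0 to 96.2 FPKM in STZ and to 82.1 to 92.9 FPKM in PBS, most of it from Dcn, and endothelial genes to 92.3 to 109.8 FPKM in STZ and to 94.1 to 95.5 FPKM in PBS. Of the 5 fibroblast genes 1 fell, Col1a1, a chain of collagen, which was at 3.79, 3.32 and 3.03 FPKM in STZ replicates 1 to 3 and at 14.7, 11.2 and 11.2 FPKM in PBS replicates 1 to 3 (log2 change -1.67, limma adjusted p = 0.00806). The part of these other cell types in the ribosomal protein result was not tested. None of the 6 cardiomyocyte markers passed (2 lower and 0 higher at an unadjusted p under 0.05), with sums of 6262 to 7626 FPKM in STZ and 7152 to 7850 FPKM in PBS. All STZ libraries lay below both PBS libraries for 2 of the 6, against 18.8% of all genes, and above for 2, against 28.7%. Ryr2 was at 21.8, 12.35 and 7.95 FPKM in STZ and at 35.6, 28.9 and 30.3 FPKM in PBS replicates 1 to 3 (log2 change -1.24, limma adjusted p = 0.101).

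Ribosomal protein messages are short, so other genes of like exon length were compared. Length here is the total of all annotated exons of a gene with overlaps merged, which can exceed the length of any 1 message. The tested members had a median of 1754.5 bases and a highest value of 6270 bases. The classes thus do not match genes by message length. Other protein-coding genes with under 1 kb of exons had a median log2 change of -0.03 over 228 genes, and the 13 members of that length had 0.58. Between 1 and 2 kb the median was 0.04 over 1117 other genes and 0.61 over 35 members. In the class under 1 kb, other genes also followed the order of the STZ libraries, with medians over genes of -0.12 in STZ replicate 1, -0.05 in STZ replicate 2 and 0.11 in STZ replicate 3, relative to the PBS mean. Removing a trend with this exon length and GC content left the members' median at 0.57.

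Genes that act with the ribosome gave mixed values, described here by counts. Of 22 translation factors and other genes with TOP messages, 20 had a positive log2 change, against 57.0% of all genes, with a median of 0.43. Of the 22, 2 rose, against 3.64% of all genes, and 1 fell, against 2.17%. The 2 forms of the elongation factor that delivers transfer RNA moved in opposite directions. Eef1a1, the widespread form, was at 329.5, 376.6 and 367.3 FPKM in STZ and at 189.7 and 170.0 FPKM in PBS (log2 change 0.99, SE 0.12, limma adjusted p = 0.0152). Eef1a2, the form of muscle and neurons, was at 385.7, 422.3 and 405.8 FPKM in STZ replicates 1 to 3 and at 593.3, 575.8 and 582.2 FPKM in PBS replicates 1 to 3 (log2 change -0.53, limma adjusted p = 0.0440). Eef1a2 did not pass without any 1 of the 5 libraries (adjusted p 0.0552 to 0.333), and Eef1a1 did not pass without PBS replicate 1 (0.116) or PBS replicate 2 (0.142). Eif3f, a subunit of an initiation factor, also rose (log2 change 0.58, limma adjusted p = 0.0450), and its adjusted p was 0.0612 to 0.314 with 1 library left out.

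Genes of the machinery that builds ribosomes had medians nearer to that of all genes. Over 30 ribosome assembly genes the median log2 change was 0.02, 2 rose, against 3.64% of all genes, and 1 fell, against 2.17%. Rrs1, which acts in assembly of the large subunit, was at 18.18, 15.74 and 13.96 FPKM in STZ and at 8.26 and 9.15 FPKM in PBS (log2 change 0.80, limma adjusted p = 0.0371), and Nhp2, a protein of the pseudouridylation complex, rose by 0.62 (limma adjusted p = 0.0408). Rrp12, which acts in export of the subunits, was at 3.18, 3.58 and 2.79 FPKM in STZ and at 6.02 and 5.27 FPKM in PBS (log2 change -0.67, limma adjusted p = 0.0451). With 1 library left out the adjusted p reached 0.257 for Rrs1, 0.277 for Nhp2 and 0.306 for Rrp12. Of 13 genes of RNA polymerase I, which makes ribosomal RNA, limma called 0 (1 at an unadjusted p under 0.05), with a median of -0.09, and of 8 ribosomal protein chaperones 0 (1 at an unadjusted p under 0.05), with a median of 0.00.

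Of 17 genes that control ribosomal protein messages, 3 rose, against 3.64% of all genes, and limma called 0 lower (4 lower at an unadjusted p under 0.05), against 2.17%. The median log2 change was 0.12. Eif4ebp1, which holds back cap-dependent initiation when mTOR is inactive, was at 52.2, 50.2 and 64.0 FPKM in STZ and at 17.5 and 18.0 FPKM in PBS (log2 change 1.58, SE 0.15, limma adjusted p = 0.00806). Myc, a transcription factor that drives ribosome synthesis, was at 2.40, 2.55 and 2.30 FPKM in STZ and at 0.57, 1.21 and 1.05 FPKM in PBS replicates 1 to 3 (log2 change 0.87, limma adjusted p = 0.0440). Maf1, a repressor of RNA polymerase III, was at 29.8, 25.2 and 30.6 FPKM in STZ and at 17.2, 17.7 and 16.9 FPKM in PBS replicates 1 to 3 (log2 change 0.67, limma adjusted p = 0.0433). With 1 library left out, the adjusted p reached 0.0856 for Eif4ebp1, 0.257 for Myc and 0.280 for Maf1.

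The mitochondrial ribosome, the nearest set to compare with, leaned the other way. Of its 78 tested genes limma called 0 (18 lower and 1 higher at an unadjusted p under 0.05), 62 had a negative log2 change and the median was -0.18. The count of 0 depended on the setting. With median centring 3 genes were lower, 2 with quantile normalization, 2 with a filter at 5 FPKM and 5 with PBS replicate 3 added. A threshold of 0.1 gave 4 lower, nuclear protein-coding genes alone 3, and removal of the length and GC trend 2. Over the genes of all 6 files 7 of 41 were lower, against 7.90% of those genes. Under these settings 0 were higher. The STZ libraries lay below both PBS libraries for 35 of the 78, against 18.8% of all genes. Mrpl28 was at 24.9, 27.2 and 29.9 FPKM in STZ replicates 1 to 3 and at 42.0, 40.7 and 43.6 FPKM in PBS replicates 1 to 3 (log2 change -0.58, limma adjusted p = 0.0540). The groups did not overlap for Mrpl28.

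**Figure D5:**
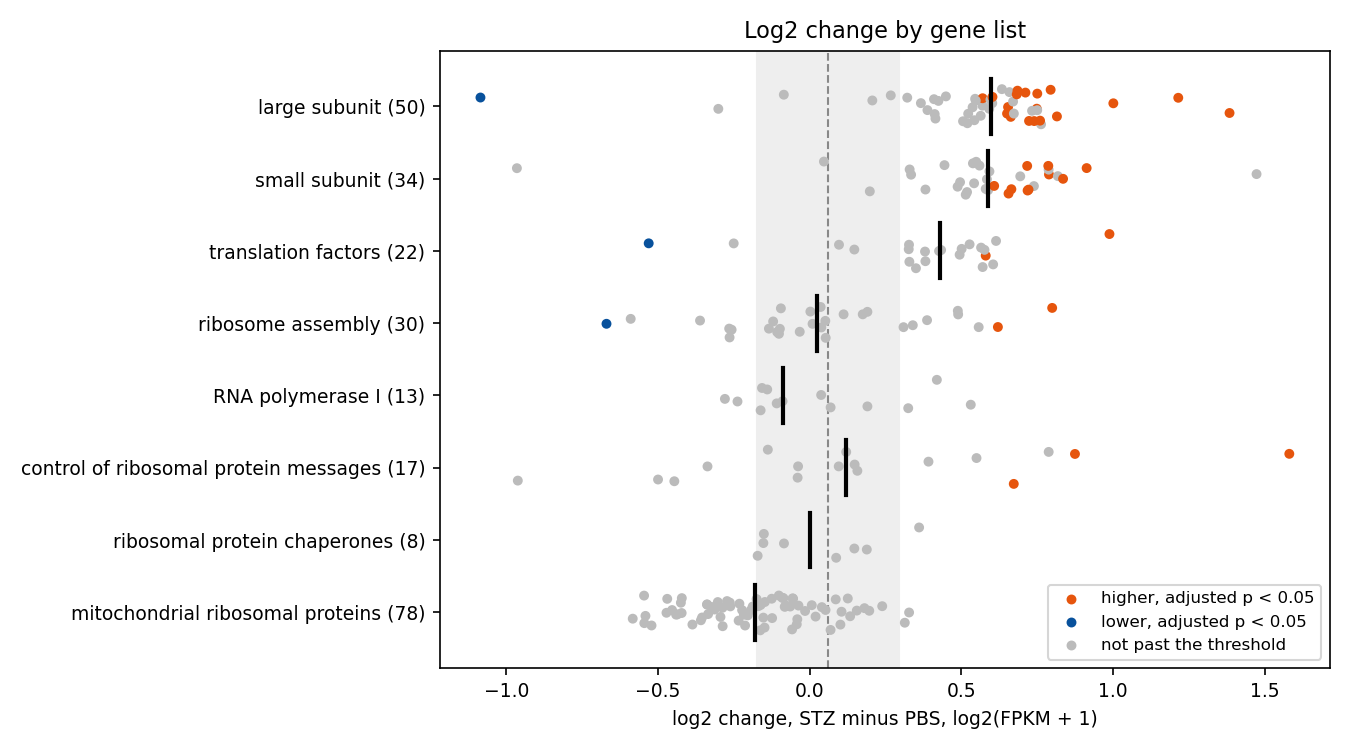
Log2 change (STZ minus PBS) of each tested gene of the 2 subunits and of 6 comparison lists, with the number of genes tested in brackets, a black bar at the median of each list, a dashed line at the median of all genes and grey shading between their quartiles. Medians are 0.60 and 0.59 for the subunits, 0.43 for translation factors and -0.18 for mitochondrial ribosomal proteins.

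Promoters of members were read for shared features, which the choice of members did not use. RefSeq promoters (GRCm38.p6, 250 bases before to 50 after the start) were found for 66 of the 86 members among 27025 genes. A C followed by 4 pyrimidines on the sense strand, as at the start of a TOP message, was found from 5 bases before to 15 after the annotated start in 37 of 66 members (56.1%) and in 27.7% of all genes. The motif CCGGAAG, read on both strands of the 300 bases, was found in 39.4% of members and 9.93% of all genes, AAGATGG in 16.7% and 7.28%, and TATAAA in 10.6% and 15.7%. The motifs were not tested, and a match is a description of letters, not a site.

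The windows from 30 bases before to 20 after the start show the run in members that rose or did not, 5′ to 3′ on the sense strand of each gene, with the pyrimidine run in capitals.
Rps6, chr4:86857348-86857397, minus strand: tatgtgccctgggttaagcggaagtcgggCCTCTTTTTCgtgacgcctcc
Rps18, chr17:33955646-33955695, minus strand: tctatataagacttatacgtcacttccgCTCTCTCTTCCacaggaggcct
Fau, chr19:6057917-6057966, plus strand: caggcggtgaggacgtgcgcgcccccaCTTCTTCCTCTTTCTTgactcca
Rpl12, chr2:32961682-32961731, plus strand: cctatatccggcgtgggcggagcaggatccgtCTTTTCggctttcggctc
Rpl3l, chr17:24727796-24727845, plus strand: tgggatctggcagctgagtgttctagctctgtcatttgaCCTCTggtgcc
Fau has the longest run of these, and Rpl3l, the member that fell, has a short run after its start. Of the 37 tested members with the run, 7 rose, with a median log2 change of 0.56. Of the 27 tested without it, 15 rose, with a median of 0.66. Over all 84 tested members 33.3% rose, and 3.64% of all genes. Both medians lay within the members' quartiles of 0.49 and 0.72, and the difference between the 2 sets was not tested.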

How the data were processed

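Myocardial poly(A) RNA was sequenced after dUTP marking of the second strand, per the labels' protocols. Each deposited file holds 1 FPKM per gene with 2 decimals, per the file headers. The submitters' processing notes list StringTie 1.3.4d, HISAT2 2.0.4, cutadapt 1.9 and the build GRCm38. Which annotation, strand setting or filter was used is not given in the sources used here, so reads of near-identical copies or overlapping genes could be shared. Counts were not used, so depth is unknown and no counting interval is given.

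Symbols and positions came from GENCODE M21 (55141 of 55401 identifiers). A library listing fewer than 50% of the genes was left out of the fit. Genes that reached 1 FPKM in 2 or more fitted libraries were tested on log2(FPKM + 1) with limma 3.58.1 in R 4.3.3 (eBayes with trend, two-sided, Benjamini-Hochberg adjustment, threshold 0.05), without covariates. Log2 changes are on that scale, which understates low genes. Paralogue shares were compared by exact permutation tests in scipy 1.17.1. The length and GC trend was fitted with mgcv 1.9.3.

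Members, lists and tests were chosen with earlier results of these data known. Named genes were the paralogues with their parents, Rplp0, Rplp1, Rplp2, Rpsa, Fau and Rps27a, the 4 highest and 4 lowest changes and the 3 highest levels per subunit, called members that fell, and up to 4 genes with the smallest p of each list. Genes of the role groups and others that passed are named beside a count. The fit was checked on simulated data. Some genes that these rules take are left unnamed and are not reported here.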

Additional observations from a re-analysis of the deposited data

How the results depend on the processing

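The count of all genes past the threshold was 672, with 28 members higher and 1 lower. Without a filter on low values it was 81 genes, with 1 member higher (1 of the large subunit, 0 of the small) and 0 lower. At a threshold of 0.1 it was 1642, with 59 members higher (35 large, 24 small). With PBS replicate 3 added where it lists a gene it was 1171, with 50 members higher (30 large, 20 small), and over the genes of all 6 files 10 large subunit genes were higher. Leaving out 1 library at a time gave 24 to 398 genes, 0 to 18 members higher, 0 to 10 of the large and 0 to 8 of the small subunit, and 0 to 2 lower. The members' median log2 change stayed between 0.53 and 0.68 when 1 library was left out. The share of calls that were higher was 62.6%, and 48.5% with median centring, 50.2% with quantile normalization and 73.1% as TPM. These scalings gave 20, 28 and 31 members higher. The change of Rps27l was -0.022 with median centring, -0.0513 with quantile normalization and -0.0128 with the length and GC trend removed, and -0.0352 to 0.152 with 1 library left out. That of Rpl7a was -0.437 to 0.148 with 1 library left out, and that of Myh6 was 0.144 with quantile normalization. The share of Rpl22l1 differed by -1.425 to 1.067 points and that of Rpl39l by -0.309 to 0.0563 points with 1 library left out. With the replicate number as a block, 64 genes passed, 2 members higher (1 large, 1 small) and 0 lower. In that fit STZ replicate 3 had no fitted PBS library of its number, so the changes came from replicates 1 and 2 of each group. The members' median log2 change was 0.526, the same as without STZ replicate 3. The lower count thus cannot be read as an effect of pairing. Deviations of same-numbered libraries correlated at 0.174, -0.049 and 0.156. STZ replicates 1 and 3 correlated best with the PBS library of their own number, and STZ replicate 2 with PBS replicate 1 (0.09). These values do not settle whether the numbers pair the libraries. The labels give no meaning to the numbers, yet atrial Myl7 followed them in both groups (357.4, 73.7 and 0.28 FPKM in STZ replicates 1 to 3, and 262.4, 37.9 and 0.21 FPKM in PBS replicates 1 to 3), and whether same-numbered libraries share a source was not tested. Of 669 values of 33 named members under the alternatives, 550 kept their direction and side of the threshold, 71 lost the call, 40 gained it and 8 changed sign. The cause of these changes was not tested. PBS replicate 3 could not be added to the paralogue shares, since it lists both genes of no pair.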

Other observations

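Some ribosomal protein loci outside the members were also measured. Rps12-ps3, annotated as protein-coding, was at 194.8, 231.9 and 194.0 FPKM in STZ and at 123.4 and 109.8 FPKM in PBS (log2 change 0.82, SE 0.14, limma adjusted p = 0.0290), while its parent Rps12 was at 25.5, 38.4 and 46.6 FPKM in STZ and at 18.9 and 23.4 FPKM in PBS (log2 change 0.74, limma adjusted p = 0.135). The other -ps copies that rose were Rpl9-ps4, Rpl10-ps5 and Rps12-ps1. Rps4l, annotated as a transcribed pseudogene, was at 17.8, 15.5 and 28.0 FPKM in STZ and at 14.8 and 14.1 FPKM in PBS and did not pass (limma adjusted p = 0.314), with a share beside Rps4x of 9.004% ± 2.73 in STZ (SD, n = 3) and 10.4% ± 0.770 in PBS (SD, n = 2).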
